A study of Solanum lycopersicum with 4 samples.

Results

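Tomato cDNAs whose degradome tags stood apart at the mature green stage were described here against the stages on either side of it. A cDNA was a member when its whole-cDNA tag total at mature green was at least 2-fold above, or at least 2-fold below, both the total at 5 days after pollination and the total at breaker. It also needed 50 or more tags per 10000000 tags (TP10M) in the highest of those 3 libraries. Of 5373 cDNAs in the 3 deposited tables, 1195 had a total listed in all 3 libraries, 1165 of these reached the minimum, and 56 were members: 48 above both neighbours and 8 below both. The totals themselves chose the members, so their size is given as a description with no test. The same rule was applied to the tags at each listed cDNA position.

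Tissue came from whole Ailsa Craig fruits grown in a greenhouse on rockwool. The stages were young fruit (5 days after pollination), mature green, breaker, and red ripe (7 days after breaker), and each was sequenced as 1 library. No group carried a transgene or a treatment according to the labels. With 1 library per stage no difference has a replicate check, and each comparison is between libraries. In whole fruits, fewer cells of a type and less RNA per cell cannot be told apart, and seeds are part of the sample.

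A degradome tag is the 5′ end of an uncapped, polyadenylated RNA fragment. Such ends come from microRNA slicing at 1 place, and also from ordinary decay along the whole message, so a whole-cDNA total follows both how much of a message there is and how fast it is broken down. Mature green fruit is fully grown, firm and still green, and its seeds are maturing. Breaker is the onset of colour change, when ethylene production begins to climb. At 5 days after pollination the young fruit is in its cell division phase.

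Of the 3 stages compared, mature green had the fewest totals 2-fold above or below both others, on the deposited values. Red ripe was not ranked this way, and the other 2 stages were not counted after scaling. Mature green was above both neighbours by 2-fold at 48 of 1165 cDNAs (4.12%) and below both at 8 (0.687%). By the same rule 5 days after pollination was above the other 2 libraries at 168 cDNAs (14.4%) and below them at 80 (6.87%), and breaker was above at 76 (6.52%) and below at 252 (21.6%). These counts share the same 3 libraries. Against the mean of its neighbours, mature green was at least 2-fold higher at 89 cDNAs (7.64%) and lower at 116 (9.96%). The median log2 ratio over the 1165 cDNAs was -0.15 for mature green over 5 days after pollination and 0.51 for mature green over breaker. Median-of-ratios scaling moves the first by 0.14 and the second by -0.49. After scaling, 31 cDNAs were above both neighbours and 18 below, so that 63.3% of the called cDNAs were above, against 85.7% as deposited. Of the 48 members above, 30 remained above, and of the 8 below, 5 remained below. The breaker library listed totals for 1879 cDNAs, against 3716 in young fruit and 3379 at mature green.

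**Figure D1:**
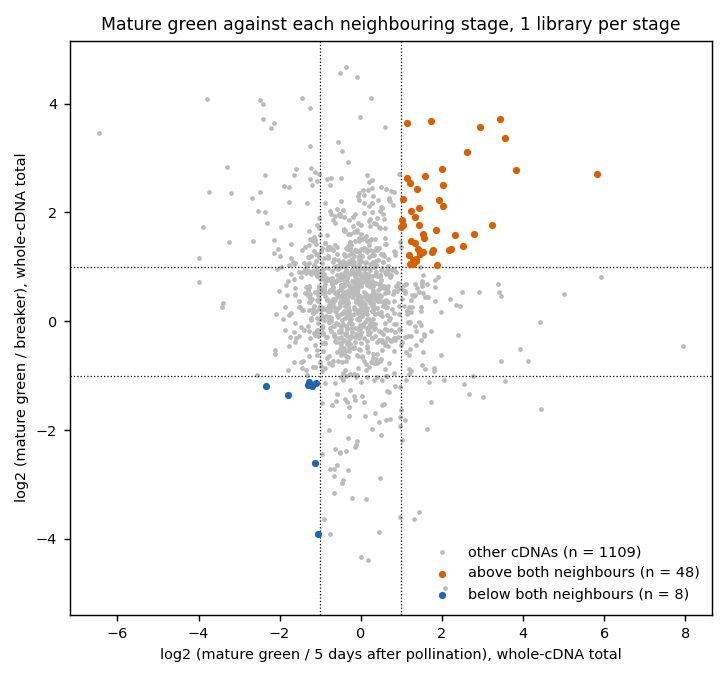
Each point is 1 of 1165 cDNAs, placed by the log2 ratio of its whole-cDNA total at mature green to that at 5 days after pollination (horizontal) and at breaker (vertical), with dotted lines at 2-fold. The 48 cDNAs above both neighbours lie in the upper right corner and the 8 below both in the lower left, and over all points the medians are -0.15 on the horizontal axis and 0.51 on the vertical.

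The highest ratios belonged to a sugar transporter and a group of N-acetyltransferase genes. Solyc08g068710, annotated as an N-acetyltransferase of the GCN5-related kind, had 60 TP10M in young fruit, 648 at mature green, 49 at breaker and 47 in red ripe fruit. Mature green was 11.9 times the mean of its neighbours. Such enzymes move an acetyl group onto an amine, and the annotation does not name the substrate. Solyc08g068770 had 59, 693, 67 and 50 TP10M in stage order (10.3 times breaker, the nearer neighbour). Solyc08g068700 had 156, 1197, 101 and 60 (9.32 times the mean), and Solyc08g068690 had 151, 2147, 314 and 138 (9.23). In all 4 the mature green library stood alone, with the other 3 libraries far below it.

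These 4 genes are close to each other in locus number and do not count as independent members. They shared listed peaks with the same values: 2, 17, 3 and 1 TP10M in stage order at 1 position and 2, 19, 0 and 2 at the next base. With them counted once the members above number 45. The only other tested cDNA with this annotation word, Solyc01g099750 (heparan-alpha-glucosaminide N-acetyltransferase), had 336, 590, 614 and 626 TP10M.

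Solyc05g024260 is annotated as a RAG1-activating protein 1 homolog, the family that plant biologists know as SWEET sugar transporters, which let sugars cross membranes down their gradient. Its total was 39 TP10M in young fruit, 2215 at mature green, 337 at breaker and 746 in red ripe fruit. Mature green was 56.8 times young fruit and 6.57 times breaker, or 11.8 times their mean. It was the only tested cDNA with this annotation. Both later libraries kept more tags than the youngest.

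Both tested cDNAs with the word chitinase, a word chosen after the values were seen, were above, against 4.12% of all tested cDNAs, and nothing is read from so small a count. The total of Solyc09g098540 was 4503, 27817, 3216 and 1683 TP10M in stage order, 7.21 times the mean of its neighbours. Solyc12g098810 had 136, 682, 227 and 118 (3.76). Chitinase-like proteins of this glycoside hydrolase family are known in Arabidopsis for a part in cellulose assembly rather than for digesting chitin. A cellulose synthase-like gene, Solyc03g097050, of a family that builds wall polysaccharide backbones, had 281, 624, 50 and 675. Mature green was 12.5-fold above breaker, and red ripe was slightly above mature green.

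Members for enzymes that act on sugars or organic acids are given next, without a count of how many such enzymes were tested. Fructose-1,6-bisphosphatase Solyc04g071340, an enzyme on the path from triose phosphates to sucrose and starch, had 184 TP10M in young fruit, 738 at mature green and 106 at breaker, and no total was listed for red ripe. The glucan phosphorylase Solyc03g065340, which removes glucose units from starch, had 1223, 2857, 493 and 296 in stage order (3.33). Mature green was its highest library and red ripe its lowest. A phosphoglycerate mutase family gene, Solyc01g098590, had 288, 703 and 325, with no last value. A glyoxylate/hydroxypyruvate reductase, Solyc01g111630, whose enzyme class works in photorespiration, had 521, 1195, 513 and 705. Glycosyl transferase Solyc03g120310 had 302, 736, 339 and 382, and UDP-glucosyltransferase Solyc07g043160 had 109, 320, 111 and 158. After scaling the mutase, the reductase and Solyc03g120310 were no longer above both neighbours by 2-fold.

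Carriers of other substrates were members too. Both tested cDNAs annotated as peptide transporters, membrane carriers of a family that moves peptides or nitrate, were members. This word too was chosen after the values were seen, and the share over all tested cDNAs was 4.12%. Solyc06g065020 had 588, 2135, 666 and 1620 TP10M (3.41), and Solyc03g120550 had 1587, 4624, 1912 and 5917 (2.64). In Solyc03g120550 the red ripe library was the highest of the 4, and this gene was lost from the members after scaling. The ferric reductase oxidase Solyc01g102610, of an enzyme class that reduces iron before uptake, had 148, 488 and 38 TP10M in the first 3 stages (5.25). Solyc03g007870, with a heavy metal-associated domain, had 369, 763, 160 and 537.

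**Figure D2:**
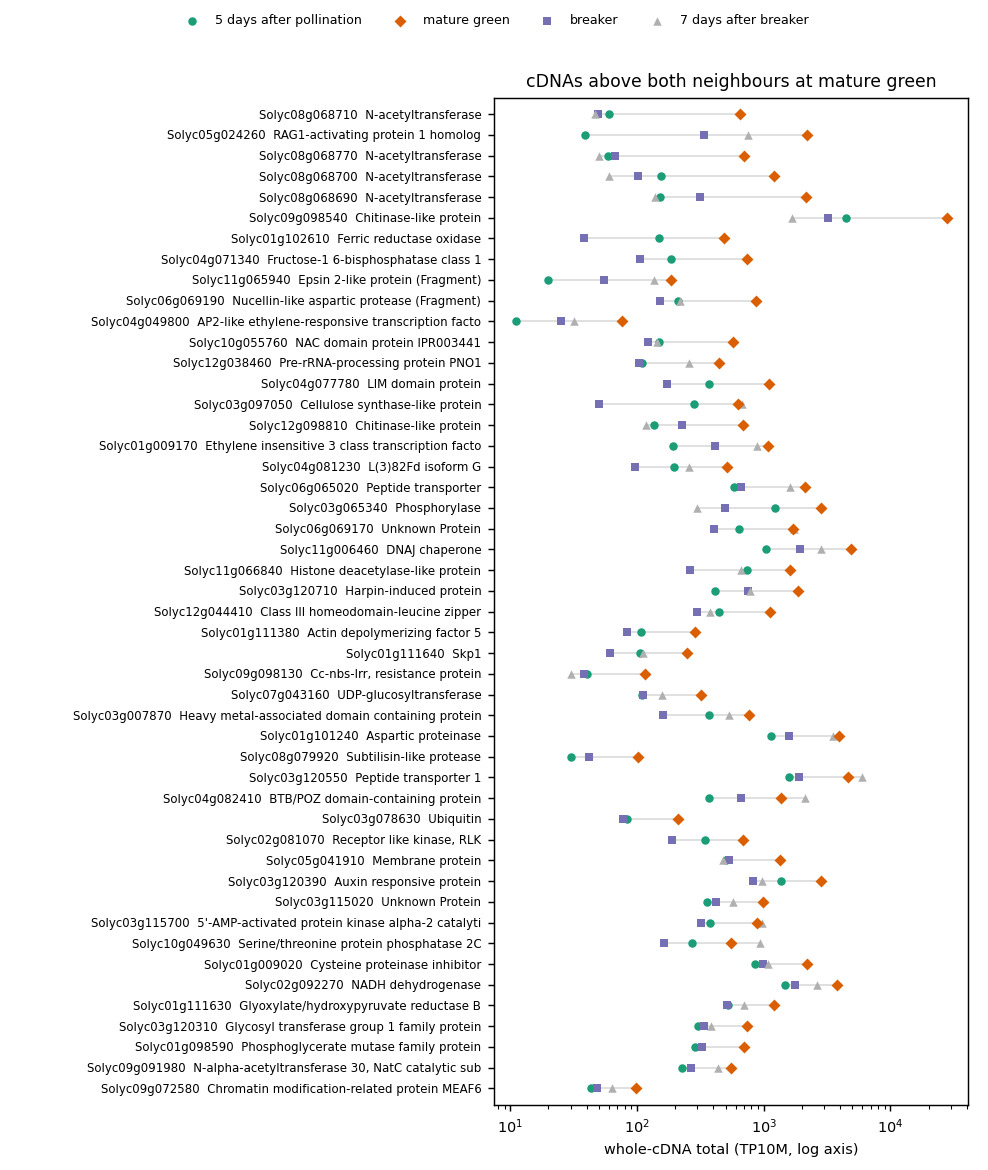
Whole-cDNA totals (TP10M, log axis) of the 48 cDNAs above both neighbours, ordered by the ratio of mature green to the mean of its neighbours, with 1 point per library and no triangle where red ripe (7 days after breaker) had no total listed. Mature green lies right of both neighbours throughout, as the rule requires, while red ripe ranges from below both neighbours, as in the N-acetyltransferase genes, to beyond mature green, as in Solyc03g120550.

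Among regulators, an ethylene signalling gene and several transcription factors were members. Solyc01g009170, an ethylene insensitive 3 class transcription factor, which switches on ethylene response genes, had 191 TP10M in young fruit, 1087 at mature green, 415 at breaker and 883 in red ripe fruit (3.59). It was not above breaker by 2-fold after scaling. The other tested gene of this class, Solyc06g073720, had 519, 561, 318 and 539 and was no member. The NAC domain gene Solyc10g055760, of a plant transcription factor family with several ripening regulators, had 150, 574, 122 and 144 (4.22). The other NAC domain genes tested, Solyc03g115850 (294, 98, 14 and 37) and Solyc06g069710 (407, 284, 12 and 135), were highest in the youngest fruit. The Aux/IAA gene Solyc03g120390, of a family that represses auxin response, had 1368, 2836, 830 and 970 (2.58). Another tested cDNA annotated as an auxin responsive protein, Solyc01g097290, had 1266, 129, 18 and 129 and was no member. Nor was the auxin responsive SAUR gene Solyc01g110560, with 125, 152 and 25 and no red ripe total.

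Of 5 tested class III homeodomain-leucine zipper genes, which set organ polarity and vascular pattern, 1 was a member. Solyc12g044410 had 444, 1127, 299 and 377 TP10M (3.03), while the other 4 had mature green totals between 0.366 and 1.0 times those in young fruit. Chromatin genes among the members were the histone deacetylase-like Solyc11g066840 (740, 1622, 260 and 668) and Solyc09g072580, related to the MEAF6 subunit of histone acetyltransferase complexes (43, 99, 48 and 63). The second of these was lost after scaling.

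Kinase, phosphatase and protein turnover genes were mixed in their later course. The SNF1-type kinase subunit Solyc03g115700 (annotated as AMP-activated protein kinase alpha-2), a sensor of low energy, had 375, 881, 318 and 961 TP10M. Protein phosphatase 2C Solyc10g049630 had 273, 547, 164 and 933, and the BTB/POZ domain gene Solyc04g082410 had 372, 1362, 662 and 2106. In all 3 the red ripe library exceeded mature green. Receptor-like kinase Solyc02g081070 had 342, 688 and 189, with no last value. Skp1 Solyc01g111640, a subunit of SCF ubiquitin ligases, had 106, 250, 61 and 112, and the ubiquitin gene Solyc03g078630 had 84, 212 and 78. Of these, Solyc03g115700, Solyc04g082410 and Solyc03g078630 were not members after scaling.

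Proteases appeared in both directions. Of 5 tested cDNAs with the words aspartic proteinase or protease, chosen after the values were seen, 2 were above and 1 below. Over all tested cDNAs 4.12% were above and 0.687% below, and nothing is read from so small a count. The nucellin-like aspartic protease Solyc06g069190 had 212, 865, 153 and 219 TP10M (4.74), and the aspartic proteinase Solyc01g101240 had 1138, 3896, 1574 and 3529 (2.87). The aspartic proteinase nepenthesin I Solyc01g096040 went the other way, with 4456, 2060, 4542 and 750. Another cDNA annotated as nepenthesin, Solyc03g119690, had 699, 2163 and 1347 and missed the 2-fold line at breaker, and the fifth, Solyc07g051850, had 2362, 2875, 3558 and 3512. Scaling removed Solyc01g101240 and Solyc01g096040 from the members but left Solyc06g069190. The subtilisin-like protease Solyc08g079920 (30, 102 and 42) and the cysteine proteinase inhibitor Solyc01g009020 (850, 2183, 981 and 1090) completed this set, and both were lost after scaling.

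Vesicle, cytoskeleton and ribosome assembly genes were among the rest. Epsin 2-like Solyc11g065940, of an adaptor family in clathrin vesicle budding, had 20, 187, 55 and 137 TP10M (4.99). LIM domain gene Solyc04g077780, whose family bundles actin in plants, had 370, 1105 and 173, and actin depolymerizing factor 5 Solyc01g111380 had 107, 288 and 84. Pre-rRNA-processing protein PNO1 Solyc12g038460, known in yeast for small ribosomal subunit assembly, had 109, 446, 103 and 256 (4.21). The DnaJ chaperone Solyc11g006460 had 1041, 4861, 1925 and 2811 (3.28). Harpin-induced protein Solyc03g120710 had 411, 1870, 757 and 777. Scaling took the last 2 below the 2-fold line at breaker.

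The members above not yet named were Solyc04g081230 (a TLDc domain gene), Solyc06g069170 and Solyc03g115020 (unknown proteins), Solyc05g041910 (a membrane protein), Solyc02g092270 (an NADH dehydrogenase subunit) and Solyc09g091980 (the catalytic subunit of the NatC acetyltransferase). With them stand the AP2-like gene Solyc04g049800 and the resistance gene Solyc09g098130, which carried a cut site. Solyc02g092270, of the mitochondrial respiratory chain, had 1485, 3784, 1756 and 2620 TP10M. Solyc04g081230 had 197, 516, 96 and 258, and Solyc09g091980 had 228, 552, 265 and 435. The unknown protein Solyc06g069170 had 638, 1715, 407 and 1743, so that red ripe matched mature green, and Solyc03g115020 had 359, 988, 417 and 572. Solyc05g041910 had 507, 1340, 531 and 479, with mature green alone high. Of these 6, Solyc04g081230 and Solyc06g069170 were still members after scaling. Ratios to the mean of the neighbours ran from 2.18 to 11.9 over the 48, with a median of 3.12, against a median of 1.01 over all 1165 tested cDNAs.

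The 8 cDNAs below both neighbours had ratios to the mean between 0.117 and 0.458. Prephenate dehydratase Solyc11g066890, an enzyme of phenylalanine synthesis, had 197 TP10M in young fruit, 95 at mature green, 1426 at breaker and 204 in red ripe fruit. The breaker library alone stood out, 15.0-fold above mature green. Beta-galactosidase Solyc12g008840, of a family that trims galactose side chains from the cell wall, had 669, 304, 1837 and 710. In both, mature green was just over 2-fold below young fruit, and both were lost after scaling. The other tested beta-galactosidase, Solyc03g121540, had 529, 458, 522 and 1286.

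Ethylene responsive transcription factor 2a, Solyc03g123500, had 35281, 7013, 16043 and 12365 TP10M in stage order. Mature green was 5.03-fold below 5 days after pollination and 2.29-fold below breaker, and it was the lowest of the 4 libraries. Ferredoxin-6 Solyc05g055280, of an electron carrier family of plastids, had 500, 144, 370 and 163. The 40S ribosomal protein S10-like gene Solyc12g096540 had 1603, 667, 1450 and 627, and Solyc07g007500, of unknown function, had 730, 319, 727 and 586. These 4 genes remained below both neighbours after scaling, as did the GRAS gene Solyc08g078800. Scaling added 13 cDNAs below both, among them 3 for ribosomal proteins: Solyc01g099670 (4400, 1610, 2910 and 2089), Solyc06g082670 (6000, 2484, 3858 and 2778) and Solyc07g061900 (1025, 238, 361 and 718). Ribosomal proteins were 52 of all 1165 tested cDNAs, and nothing is read from so small a count.

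**Figure D3:**
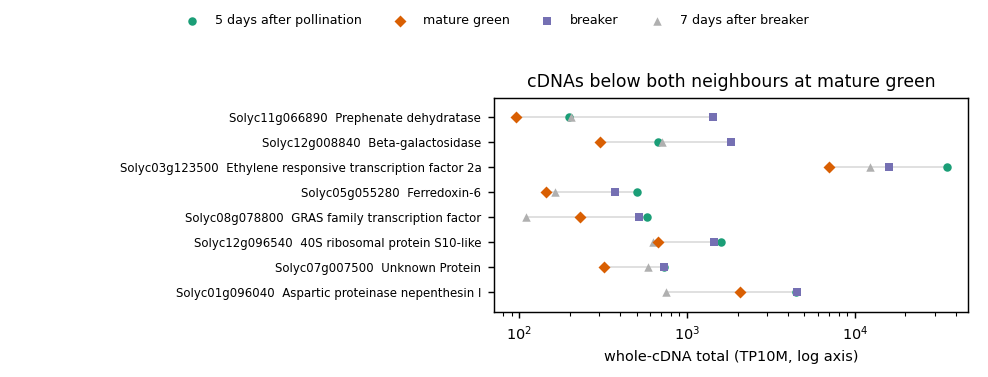
Whole-cDNA totals (TP10M, log axis) of the 8 cDNAs below both neighbours, with 1 point per library. Mature green is left of both neighbours in each, and in Solyc11g066890 and Solyc12g008840 the breaker library lies far to the right of the other 3.

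By annotation, 33 of the 48 members above and 3 of the 8 below were in none of the gene groups listed for this tissue, as were 757 of the 1165 tested cDNAs. Of 52 tested ribosomal protein cDNAs 0 were above and 1 below, with a median ratio to the mean of the neighbours of 0.65. Of 22 translation factors and 38 RNA binding and processing genes 0 were above and 0 below. The photosynthesis and chloroplast group had 0 above and 1 below of 17, and the seed, oil body and embryogenesis group 0 and 0 of 4. Stress and defence genes had 3 of 23 above: the chitinase-like pair and the cysteine proteinase inhibitor. The cell wall group had 1 of 8, ethylene and ripening 2 above and 1 below of 23, and auxin, gibberellin, abscisic acid and cytokinin 1 above of 19. For the cytoskeleton, histone and cell cycle group it was 2 of 29, for heat shock proteins and chaperones 1 of 29, and for ubiquitin and proteasome genes 1 of 32. The microRNA target classes, matched by annotation words only, had 2 above and 1 below of 44. That count leaves out the AP2-like gene Solyc04g049800, taken under ethylene and ripening, and the class III gene Solyc12g044410, taken in no group. It takes in Solyc03g117540 and Solyc07g063510, annotated for multidrug and aluminum resistance. Unknown proteins had 2 above and 1 below of 68. Over all tested cDNAs the share above was 4.12%, and the groups are too small for their shares to be set apart from it. By the chromosome number in the gene identifiers, chromosome 3 held 10 of 144 tested cDNAs above and chromosome 7 held 1 of 98.

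The red ripe library took no part in the rule. Of the 48 members above, 40 had a total there. Mature green was at least 2-fold above it in 21 of these, within 2-fold in 19 and at least 2-fold below it in 0. Over all tested cDNAs with a total there, mature green was 2-fold above in 151 of 1024 (14.7%) and below in 118 (11.5%). Since members were chosen for a high mature green total, a larger share above is what the choice gives, and nothing was read from it. Within the 40, 27 had a red ripe total above both neighbours, 4 between them and 9 below both. Over all 1024 tested cDNAs with a red ripe total these counts were 372, 461 and 191. Members were also chosen for low totals in both neighbours, so a larger share above both is again what the choice gives. Nothing was read from it. The 9 members below both included all 4 N-acetyltransferase genes, both chitinase-like genes and the phosphorylase Solyc03g065340. Of the 8 members below, all with a last value, 2 had it at least 2-fold above mature green and 2 at least 2-fold below.

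Most tags of the members lay outside the predicted small RNA sites. Listed sites held a median of 0.558% of the mature green total in the members above, and 0.213% in those below, against 0.385% over all tested cDNAs. A site of peak category 0 or 1, which in CleaveLand marks the highest position of the cDNA or one that shares that rank, was present in at least 1 library in 5 of the 48 (10.4%) and in 1 of the 8, against 6.52% of all tested cDNAs. Less the tags at listed sites, 46 of the 48 and 7 of the 8 were still members. The exceptions were the AP2-like gene Solyc04g049800, protein phosphatase 2C Solyc10g049630, which went from just inside the threshold to 1.99-fold, and the GRAS gene Solyc08g078800.

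Solyc04g049800 had a miR172 site at cDNA position 1117, with an alignment penalty of 2 and category 0 in all 4 libraries. MiR172 directs the cutting of AP2-like transcription factor messages. The whole cDNA had 11, 76, 25 and 32 TP10M in stage order, of which the site held 4, 44, 6 and 17. The site thus carried 57.9% of the mature green tags and 24.0% of the breaker tags. Without listed sites 7, 30, 19 and 14 TP10M were left, and mature green was then 1.58 times breaker. The authors' deposited table for position 10 gave this site a q-value of 0.03 in each library.

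The GRAS gene Solyc08g078800, from the family of shoot and root meristem regulators that miR171 targets, was below both neighbours only with its site included. Its whole-cDNA totals were 574, 231, 520 and 109 TP10M, and its miR171 site at position 404 (penalty 3, category 0 throughout) held 164, 100, 433 and 32. The site share was 28.6% in young fruit, 43.3% at mature green, 83.3% at breaker and 29.4% in red ripe fruit. The rest of the cDNA had 409, 131, 83 and 77, with mature green 1.58 times breaker. A second GRAS gene under miR171, Solyc01g090950, had totals of 291, 216, 417 and 100 and was no member.

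The other sites of category 0 or 1 in at least 1 library held smaller shares of their mature green totals. The miR165 and miR166 site of Solyc12g044410 at position 559 was of category 0 in young fruit and at breaker. At mature green and in red ripe fruit it was of category 2. It had 63, 142, 119 and 20 TP10M, which would be 12.6% of the mature green total and 39.8% of the breaker total. The same 4 values were listed for the sites of the class III genes Solyc08g066500 (position 577) and Solyc03g120910 (position 860), so these tags cannot be assigned to 1 of the 3 genes. Less the tags at all its listed sites, the rest of Solyc12g044410 was 2.60-fold above young fruit and 5.59-fold above breaker. The NBS-LRR resistance gene Solyc09g098130 had totals of 40, 116, 38 and 30, with 4, 12, 1 and 1 at a miR6027 site at position 2428 (penalty 2.5). This site was of category 0 in young fruit and at mature green, and of category 2 at breaker and in red ripe fruit. In Solyc05g024260 a miR5301 site at position 972 had category 1 at 5 days after pollination with 1 TP10M. In Solyc08g068710 a miR396 site at position 506 had category 0 at breaker with 3 TP10M, at a penalty of 7.

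**Figure D4:**
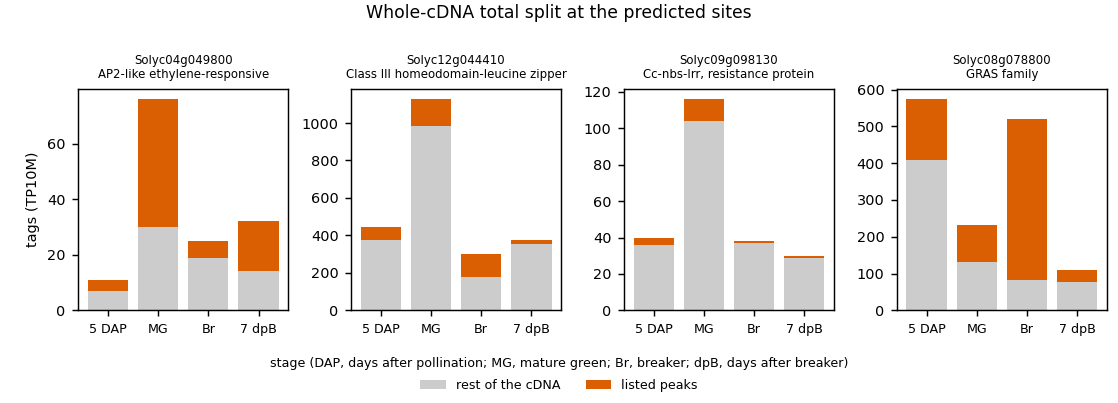
Whole-cDNA totals (TP10M) of 4 members with a site of category 0 in at least 1 library. Bars run from 0 and are split into the tags at listed sites and the rest, for the 4 libraries in stage order. In Solyc08g078800 the breaker bar is mostly site tags and the grey part is lower at each later stage. The grey part itself is highest at mature green in Solyc04g049800, Solyc09g098130 and Solyc12g044410. The position 559 tags of Solyc12g044410 are listed with the same values for 2 related genes.

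Single positions were called by the same rule. Of 12619 listed sites 48 reached 50 TP10M in the highest of the 3 libraries, with a peak that was not listed taken as 0. Mature green was above both neighbours by 2-fold at 8 of them (16.7%) and below both at 0 (0.0%). By the same rule 5 days after pollination was above at 15 (31.2%) and below at 15, and breaker was above at 7 (14.6%) and below at 19 (39.6%). The 8 sites lay on 6 cDNAs, and 0 of these were members by their whole-cDNA total. Over all 1165 tested cDNAs 4.12% were above and 0.687% below, so 0 of 6 is near that share and nothing is read from it. Among the 6, the 2S albumin gene Solyc08g080490 could not be a member, because its total was not listed in young fruit. After scaling, 4 of the 8 sites still met the rule.

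The miR403 site of Solyc02g069260, at position 3260 with a penalty of 1 and category 0 in each library, had 155, 679, 168 and 229 TP10M in stage order. This gene is annotated as ARGONAUTE 1, of the protein family that carries small RNAs, and miR403 is known in Arabidopsis for cutting an ARGONAUTE message. Its peak was 4.38-fold above 5 days after pollination and 4.04-fold above breaker. The whole cDNA had 2317, 2258, 807 and 2649 TP10M, so the site held 6.69%, 30.1%, 20.8% and 8.64% of the tags. The total at mature green was 0.975 times that in young fruit and 2.8 times that at breaker, so against breaker the total was higher along with the peak. The site remained above both neighbours after scaling.

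The SBP-box gene Solyc10g078700, of the family that miR156 and miR157 target, had 24, 51, 1 and 1 TP10M at position 775 (penalty 2). Its total went 660, 117, 7 and 4, so the peak was higher at mature green on a cDNA whose total was 0.177 times that in young fruit. The site share was 3.64% in young fruit and 43.6% at mature green. The abscisic acid receptor gene PYL8 (Solyc01g095700), at a position 9 peak under the name miR156 and miR157 with a penalty of 7, had 23, 141, 64 and 136 TP10M. Its site share went from 9.16% to 45.6%, 50.8% and 60.2% in stage order. The deposited q-values of this PYL8 site were 0.08, 0.13, 0.11 and 0.12, against 0.04, 0.04, 0.03 and 0.03 for the SBP-box site. After scaling neither site met the rule. The PYL8 peak was no longer 2-fold above breaker. The SBP-box peak of 51 TP10M at mature green, divided by the size factor of 1.08, fell under the 50 TP10M minimum. It missed the rule by that minimum and not by the fold.

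The other 5 sites were of category 2 at mature green and held under 1% of their mature green totals. Type 2 metallothionein Solyc09g010800, a small metal-binding protein, had 73, 256, 44 and 232 TP10M at position 214, or 0.97% of its mature green total. Its whole-cDNA totals were 11351, 26380, 37324 and 22114. Agglutinin isolectin I Solyc03g116230, a lectin, had 3 neighbouring positions, 862 to 864, with 57, 55 and 73 TP10M at mature green, 2 each at 5 days after pollination and 23, 24 and 19 at breaker. Its total was 691, 22097, 15662 and 10037, and all 3 later libraries were far above young fruit. The 2S albumin gene Solyc08g080490 had 66 TP10M at position 307 at mature green, 1 at breaker and 2 in red ripe fruit, and it was not listed in young fruit.

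**Figure D5:**
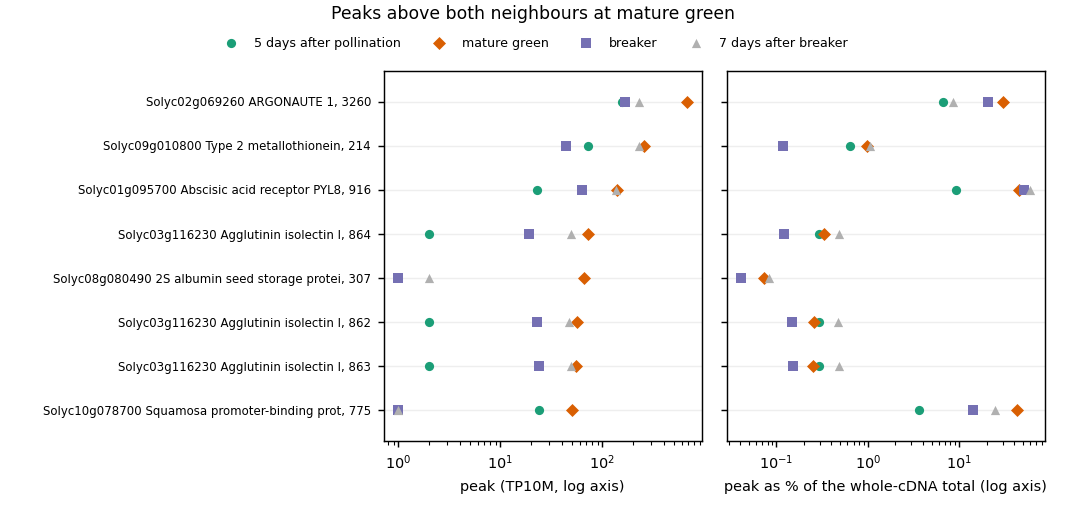
The 8 listed positions above both neighbours at mature green, labelled by gene and cDNA position, with the peak in TP10M on the left and as a percent of the whole-cDNA total on the right (both log axes), 1 point per library. The ARGONAUTE 1 and SBP-box sites have their highest share at mature green, whereas the PYL8 share is higher in both later libraries.

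Members near the threshold were hardly set apart from cDNAs just outside it. The 3 just inside on the upper side were Solyc10g049630, Solyc02g081070 and Solyc04g082410, whose smaller ratio was 2.0, 2.01 and 2.06. Just outside were translation initiation factor SUI1 Solyc07g064150 at 1.99 (2167, 5975, 2996 and 4848 TP10M), a beta-1,3-galactosyltransferase, Solyc07g064670, also at 1.99 (366, 728, 281 and 357), and the COBRA-like gene Solyc01g065530 at 1.97 (648, 1274, 466 and 3302). On the lower side Solyc11g066890 (0.482), Solyc01g096040 (0.462) and Solyc12g096540 (0.46) were just inside. Solyc01g009010, an enzyme of the plastid isoprenoid pathway (715, 286, 566 and 840), was just outside at 0.505, followed by the unknown proteins Solyc12g009860 at 0.507 and Solyc12g032910 at 0.512. Of the 6 members just inside, Solyc04g082410, Solyc11g066890 and Solyc01g096040 were lost after scaling, while Solyc01g009010 and Solyc12g009860 came in.

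Many cDNAs could not be judged because a total was not listed in a neighbouring library. A total is given only where a predicted site had a peak, so a missing total is not a total of 0. Of the cDNAs that reached 50 TP10M and had a total at mature green, 1087 had 5 days after pollination but not breaker, with mature green at least 2-fold above in 89 and below in 227. Another 229 had breaker but not 5 days after pollination, with mature green above in 75 and below in 29, and 584 had neither. Seed proteins were in this set, and they did not share 1 pattern. The 2S albumin gene Solyc08g080490 had 91336 TP10M at mature green, 2424 at breaker and 2423 in red ripe fruit. The 11S legumin gene Solyc09g072560 had 58849, 641 and 1014, and another, Solyc09g090150, had 41723 at mature green and 697 in red ripe fruit. The oleosin gene Solyc12g010920, for a protein that coats oil bodies, had 4489, 437 and 1017. None of these 4 had a total listed in young fruit. Of the 22 cDNAs of the seed, oil body and embryogenesis group with a mature green total, 10 had breaker but not young fruit listed. Mature green was at least 2-fold above breaker in 5 of these and within 2-fold in 5. The dehydrin gene Solyc02g084840, of a family that protects drying tissue, was within 2-fold, with 2750, 1733 and 4615. So was the oleosin gene Solyc06g060840, with 1399 and 1064 and no red ripe total. The tested dehydrin Solyc04g082200 had 795, 4615, 10273 and 11889 and was lower at mature green than in both later libraries.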

How the data were processed

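Per the labels' protocols, polyadenylated RNA of whole fruits was carried through PARE, which tags 5′ ends of uncapped fragments, and sequenced. CASAVA 1.8.0 is named in the submitters' processing notes. Per the file headers, the 3 deposited tables are CleaveLand output for ITAG2.3 cDNAs with peaks opposite position 9, 10 or 11 of the small RNA. The sources used here give no aligner and no rule for tags that match several cDNAs. Per the file headers, the deposited tag values are normalized scores (TP10M) that the authors rounded to whole numbers, 1 for the cDNA and 1 for the peak. The alignment penalty is also a deposited score, and the deposited q-values are Benjamini-Hochberg corrected, per the file headers. All 11595 peaks of category 4 were at 0 TP10M and 0 other peaks were. No counts were used, so the depth is unknown and no interval was computed.

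A cDNA's total was read from any table and a total never differed between entries. Distinct sites were counted once. No pseudocount was used. Median-of-ratios scaling, with size factors from the 1162 cDNAs that had 10 TP10M or more in each library (1.2 for 5 days after pollination, 1.08 for mature green, 0.77 for breaker) served as an alternative, along with other minimums, folds and pseudocounts. Annotation words were matched to the description before its source note, the first group with a hit taking the cDNA. The genes named are members with at least 100 TP10M or among the 12 largest ratios in each direction, sites of category 0 or 1, and the 3 cDNAs on each side of the threshold. Solyc09g072580, the 5 sites of category 2, cDNAs with a neighbour not listed, and genes set beside a member of like annotation were named after their values were seen. The members and lists were chosen with earlier results of these data known. The rule was tested on simulated data. Python 3.11.15 with pandas 2.3.3 was used.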

Additional observations from a re-analysis of the deposited data

How the results depend on the processing

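No paired analysis was possible because each stage has 1 library, and for the same reason no library could be left out. The 48 cDNAs above and 8 below changed by less than 1.5 times with a pseudocount of 1 or 5 TP10M, a minimum of 20 or 100 TP10M, identical values counted once, and, chosen after seeing the data, shared peaks counted once or listed peaks taken off. With median-of-ratios scaling the counts were 31 above and 18 below, since the shift is largest against breaker. At 3-fold they were 15 and 0. The position 10 table alone, which lists fewer totals, gave 19 and 4, and the sum of listed peaks in place of the total gave 9 and 2. Taking a total that was not listed as 0 gave 796 and 1295, which counts missing entries as changes. With red ripe as a further neighbour, also added after seeing the data, 21 and 2 were left. Of the 48 above, 8 had no red ripe total and could not be called, so the 21 are out of 40. The 89 cDNAs at least 2-fold above the mean of the neighbours became 33 in the position 10 table, 13 with summed peaks and 1208 with missing totals as 0. The 8 sites above became 4 after scaling, 27 at a minimum of 20 TP10M, 3 at 100, 4 at 3-fold, 5 in the position 10 table and 3 among sites of category 0 or 1. Sites below numbered 0 except at a minimum of 20 TP10M, where there were 3. Depth per library is unknown, so counting error could not be set beside any ratio.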
